A study of Mus musculus with 4 samples.

Results

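The genes described here encode the vacuolar proton pump (V-ATPase) and the proteins of the lysosome that it serves, measured by RNA sequencing in microglia, the resident macrophages of the brain. They are 52 genes fixed by name: 18 pump subunits and accessory proteins, 12 proteases, 6 glycosidases, 7 proteins of lipid hydrolysis and transfer, 6 lysosomal membrane proteins and 3 transcription factors of the MiT/TFE family. All 52 were found among the 16655 genes that both deposited tables hold, and 51 passed the filter on low counts, which left 15236 genes for testing. Ctsk, the collagen-degrading cathepsin of bone-resorbing cells, was the member left out, with 5 knockout reads and 0 in each control. Of the genes shared by both tables, 175 were at 0 in the knockout library, against 2696 in control 5 and 1219 in control 6. The knockout library is in both tables, whereas each control is in its own, so the knockout reads bear on which genes are shared. These counts of genes at 0 therefore cannot be compared between the knockout library and the controls.

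The cells were sorted by fluorescence from C57BL/6 mouse brain at embryonic day 14, from telencephalon per the design text and from cortex per the protocol. The tested genotype is Arid1acKO, a conditional loss of Arid1a, which encodes a DNA-binding part of BAF chromatin remodellers, and the controls are Arid1afl/fl mice that carry the floxed alleles. The Cre driver is not given in the sources used here, nor whether a sample is 1 embryo or a pool, so the spread behind each p-value may be technical rather than between animals. Values were used for knockout replicate 2 (17262261 reads counted on genes), control 5 (18608979) and control 6 (13774075). Knockout replicate 1 was not analysed here, so knockout values have no replicate error, and the spread in every test comes from the 2 controls alone. The fits share that spread over genes, so the SE of a gene is not set by its own 2 control values alone.

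The 3 libraries carried the defining transcripts of microglia. Of 8 markers, including Cx3cr1, Csf1r, P2ry12 and Fcrls, none had under 1015 reads in any library. Their summed level was 13186 CPM (reads scaled to library size, with TMM factors) in the knockout library, against 17379 CPM in control 5 and 25081 CPM in control 6. The knockout library lay below both controls in 7 of the 8 (87.5%, against 31.1% of all genes tested), and Csf1r lay between. It lay 2-fold or more below both in 3 (37.5%, against 6.92%). These were Tmem119 (583 CPM, against 1534 and 2264), Aif1 (55.5 CPM, against 200 and 151) and Sall1 (64.8 CPM, against 141 and 260). Markers of other cells were far lower: border macrophages 324 against 318 and 353 CPM, monocytes and neutrophils 254 against 244 and 188 CPM, and neurons 89.4 against 99.0 and 115 CPM. Mast cell and eosinophil markers summed to 30.9 against 47.7 and 34.6 CPM, erythroid markers to 33.3 against 33.2 and 38.6 CPM, progenitor markers to 101 against 100 and 117 CPM and endothelial markers to 25.1 against 29.6 and 33.8 CPM. Single genes did not all follow these sums. Among mast cell and eosinophil markers, Prg2 had 0.219 CPM in the knockout library, against 44.3 and 15.0 CPM. Cpa3, Kit and Gata2 went the other way, with 422 knockout reads against 0 and 185, 82 against 0 and 34, and 55 against 0 and 0. Ms4a2 (2 reads against 0 and 45) and Epx (0 against 60 and 0) did not lie on one side of both controls. The border macrophage marker Lyve1 had 122 knockout reads against 0 and 13. Plac8 had 68.9 CPM in the knockout library, against 14.7 and 31.7 CPM. Ngp, of the same monocyte and neutrophil list, had 63.3 CPM, against 82.4 CPM in control 5 and 0.888 CPM in control 6. The endothelial Pecam1 had 3.88 CPM against 20.5 and 27.2 CPM, and Kdr 14.3 CPM against 7.31 and 6.52 CPM. The part of such cells in the member values was not tested. The markers at 0 were Epx in the knockout library, Lyve1, Cd163, Cpa3, Kit, Gata2 and Ms4a2 in control 5, and Gata2, Epx and Cldn5 in control 6. Ms4a2 has no row in the table of control 5 and Epx none in that of control 6, and both were taken as 0 there. Arid1a itself had 1258 knockout reads, against 1952 and 1760 control reads, which is 68.8 CPM against 109 and 130 CPM (adjusted p = 0.901, edgeR quasi-likelihood).

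Microglia digest what they engulf in lysosomes. The V-ATPase acidifies that compartment: its cytosolic V1 sector splits ATP, its membrane V0 sector carries the protons, and most subunits come from single genes while a few have cell-type-specific versions. The acid activates cathepsins and other hydrolases, and the MiT/TFE factors TFEB, TFE3 and MITF switch on many of these genes through an E-box element in their promoters.

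Most members lay within 2-fold of the controls in the knockout library, and Atp6v0d2, at 22.1 times the control mean, had the largest difference. No member passed the test over all genes (edgeR quasi-likelihood, Benjamini-Hochberg adjusted p under 0.05), where 0.0131% of genes tested were called higher and 0.0263% lower. At an unadjusted p under 0.05 there were 2 members higher, Atp6v0d2 and Ctsd (background 2.46%), and 5 lower, Atp6v0a2, Ctsb, Ctsf, Ctsh and Psap (background 3.54%). The DESeq2 Wald test called 1 member higher, Atp6v0d2 (background 0.433%), and 2 lower, Ctsh and Psap (background 1.03%). The knockout library lay above both controls in 15 members, 29.4% of the 51 tested against 38% of all genes tested, and below both in 23, 45.1% against 31.1%. It lay below both by more than the gap between the controls in 18 members, 35.3% against 17.9% of all genes tested, and above by more than that gap in 6, 11.8% against 17.1%. Differences of 2-fold or more from both controls were found in 1 member that was higher, Atp6v0d2 (1.96% against 9.23% of all genes tested), and 2 that were lower, Atp6v0a2 and Ctsh (3.92% against 6.92%). All 51 averaged at least 5 CPM, and many other genes did not. Among the 9711 genes at that level, 0.0206% were called higher and 0.0412% lower by edgeR, 3.17% and 4.87% at the unadjusted p, and 0.669% and 1.53% by DESeq2. Of these 9711, 3.5% and 4.88% were 2-fold higher and lower, 35.8% and 35.3% lay above and below both controls, and 16.4% and 20% did so by more than the controls' gap. The median log2 fold change over the 51 members was -0.14, against 0.05 over all genes tested and -0.01 over the 9711 genes at 5 CPM or more. Fewer lysosome-rich cells and less RNA per cell cannot be told apart in such bulk samples.

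**Figure D1:**
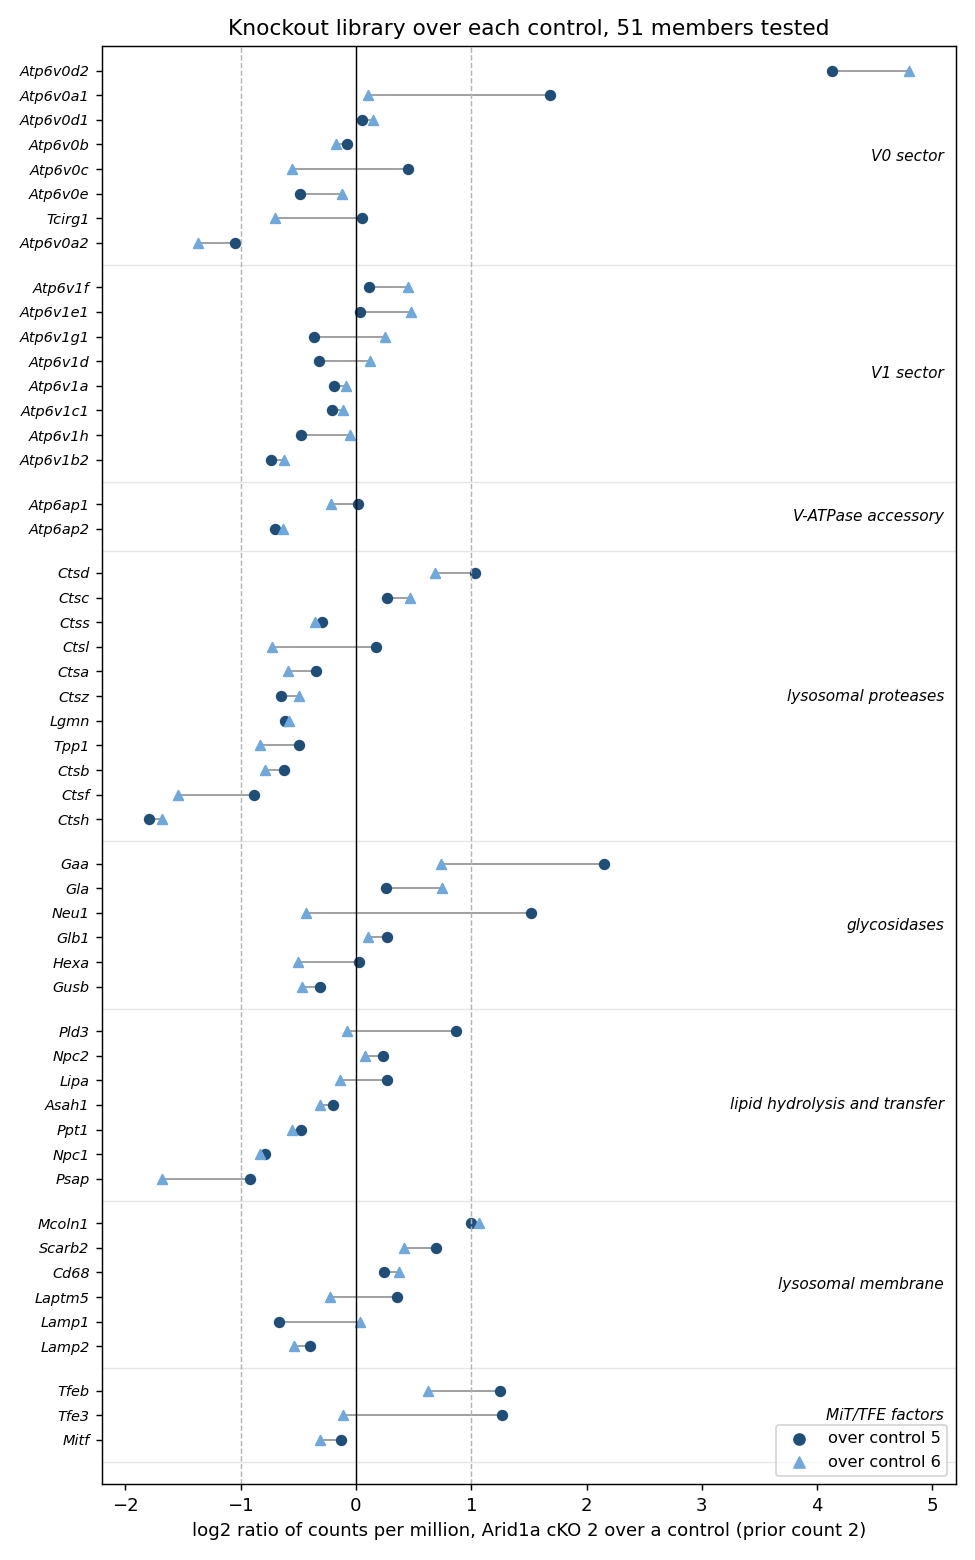
Log2 ratio of CPM in the Arid1a cKO 2 library over control 5 (circles) and over control 6 (triangles) for the 51 members tested, grouped by role, with dashed lines at 2-fold. Atp6v0d2 lies at 4.13 and 4.80, Ctsh and Atp6v0a2 lie beyond 2-fold below both controls, and most others lie within 2-fold of both.

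The E-box that MiT/TFE factors recognise has the core CACGTG, and flanking T and A bases (TCACGTGA) mark the form typical of lysosomal genes. Both were searched in the RefSeq promoter windows (GRCm38.p6, 250 bases before to 50 after each annotated start). Both motifs read the same on either strand, and the longer one contains the shorter. Windows were found for 42 of the 52 members. The core stood in 14 of these, 33.3% of members against 8.09% of all 27025 genes with a window, and the longer motif stood in 7, 16.7% against 1.12%. These 7 are shown because they carry the longer motif, which is in capitals within 30 bases, 5′ to 3′ on the gene's strand.
Ctsa, plus strand, chr2:164833749-164833778: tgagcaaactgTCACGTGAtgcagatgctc
Ctsa, plus strand, chr2:164833766-164833795: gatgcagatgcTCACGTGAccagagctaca
Ctsd, minus strand, chr7:142387908-142387937: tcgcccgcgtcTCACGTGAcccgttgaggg
Mcoln1, plus strand, chr8:3500462-3500491: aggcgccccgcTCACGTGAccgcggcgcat
Atp6v0d1, minus strand, chr8:105566050-105566079: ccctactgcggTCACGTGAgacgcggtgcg
Atp6v1a, minus strand, chr16:44139373-44139402: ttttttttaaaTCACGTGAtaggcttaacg
Atp6v0e, plus strand, chr17:26676387-26676416: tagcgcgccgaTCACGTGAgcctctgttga
Gla, minus strand, chrX:134601215-134601244: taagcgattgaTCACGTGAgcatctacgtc
Gla, minus strand, chrX:134601182-134601211: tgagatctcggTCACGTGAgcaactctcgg

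Lamp1, a major glycoprotein of the lysosomal membrane, is shown because it held the most cores of any member, 4 within the 71 bases before its start on the plus strand (core in capitals).
Lamp1, chr8:13159090-13159160: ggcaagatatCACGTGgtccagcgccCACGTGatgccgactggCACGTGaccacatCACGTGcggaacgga

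Members with and without the motif were found on both sides of the controls. Of the 14 members with the core, the knockout library lay above both controls in 6 and below both in 6 (median log2 fold change -0.13). Of 27 tested members with a window and no core, it lay above both in 8 and below both in 9 (median -0.10). For all genes tested the shares were 38% above both and 31.1% below both, and for genes at 5 CPM or more they were 35.8% and 35.3%. Among the 7 with the longer motif, Mcoln1, Ctsd, Gla and Atp6v0d1 lay above both controls (log2 fold changes 1.04, 0.85, 0.49 and 0.10), and Atp6v1a, Atp6v0e and Ctsa lay below both (-0.14, -0.32 and -0.47).

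Atp6v0d2 encodes one form of the d subunit, which links the proton channel of V0 to the central stalk of V1, and it is best known from osteoclasts and macrophages. The gene (ENSMUSG00000028238, GRCm38 chromosome 4, 19876841 to 19922605, minus strand) had 1716 knockout reads, against 94 reads in control 5 and 44 reads in control 6. On the CPM scale this is 93.9 CPM (exact Poisson interval 89.5 to 98.4, counting error only), against 5.25 and 3.26 CPM. The knockout value was 22.1 times the control mean, and the controls differed from each other by 0.67 on the log2 scale. The log2 fold change was 4.46 (SE 0.53) with an unadjusted p of 2.94e-05 and an adjusted p of 0.0561 (edgeR quasi-likelihood), just short of the threshold. The adjusted p ran from 8.06e-09 with the DESeq2 Wald test to 0.240 with upper-quartile factors. In the authors' deposited table it was the 1 member marked as significant against both controls, with folds of 19.7 over control 5 and 31.1 over control 6, where the mark went to 21.7% and 10.1% of listed genes as up.

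The partner gene of the same subunit differed little. Atp6v0d1, the form found in most tissues, had 334 CPM in the knockout library, against 321 and 302 CPM in the controls (log2 fold change 0.10, SE 0.34). Per length of exon, Atp6v0d2 made up 15.6% of the level of the pair in the knockout library, against 1.07% in control 5 and 0.708% in control 6. Its rank by level per kb of exon among the 52 members was 36 in the knockout library, against 49 (control 5) and 51 (control 6). Atp6v0d1 was the more abundant transcript of the pair in all 3 libraries.

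The 3 genes for the a subunit, the membrane part of V0 through which protons pass, did not move together. Atp6v0a2, a form linked to the Golgi and endosomes, had 75.2 CPM in the knockout library, against 156 and 195 CPM in the controls. This is over 2-fold below both (log2 fold change -1.22, SE 0.40, unadjusted p = 0.0166, adjusted p = 0.644, edgeR quasi-likelihood), and a gene on the opposite strand covers 9.86% of its exon bases. Atp6v0a1, the form abundant in neurons, had 279 CPM, against 86.7 and 260 CPM, so the knockout library was level with control 6 and it was control 5 that was low. Tcirg1, the a3 form of lysosomes and osteoclasts, had 449 CPM, against 434 and 729 CPM, between the controls. Tcirg1 was the most abundant of the 3 per length in every library, at 64.5% of their summed level in the knockout library, against 72.1% and 69.8%. Atp6v0a1 made up 28.1%, against 10.1% and 17.4%, and Atp6v0a2 made up 7.39%, against 17.7% and 12.7%.

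**Figure D2:**
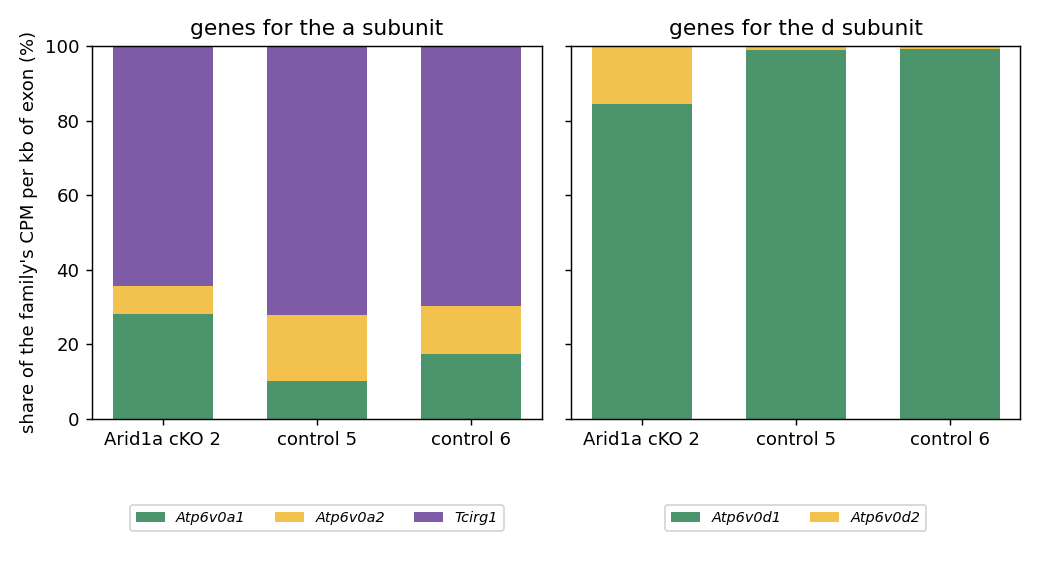
Share of the summed level per kb of exon held by each gene of the a subunit (left) and of the d subunit (right) in Arid1a cKO 2, control 5 and control 6. Atp6v0d2 holds 15.6% of the d pair in the knockout library, against 1.07% (control 5) and 0.708% (control 6).

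The remaining V0 members lay close to the controls. Atp6v0b, a proteolipid of the proton-binding ring, had 366 CPM in the knockout library, against 386 and 413 CPM. Atp6v0e, a small membrane subunit, had 101 CPM, against 142 and 110 CPM. Atp6v0c, the main ring proteolipid, had 149 reads, against 106 and 162, a low level for a ring subunit. It shares 12.2% of its 50-base words with other genes, among them 2 annotated pseudogenes. The part of this in its level was not tested. Across the 8 V0 genes the median log2 fold change was -0.13, with medians of 0.05 over control 5 and -0.15 over control 6.

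In the V1 sector, Atp6v1b2 had the largest difference. This gene encodes the B2 form of the ATP-binding B subunit and had 389 CPM in the knockout library, against 648 and 602 CPM in the controls (log2 fold change -0.68, SE 0.35, adjusted p = 0.899, edgeR quasi-likelihood). The knockout value lay below both controls by more than the controls' own gap. Atp6v1a, the catalytic A subunit, had 218 CPM, against 250 and 231 CPM. Atp6v1c1 of the regulatory collar had 163 CPM, against 188 and 176 CPM, and the collar subunit Atp6v1h had 75.2 CPM, against 105 and 77.9 CPM. All of these were below both controls by small steps. The stalk subunits Atp6v1e1 and Atp6v1f stood slightly above both, at 166 CPM against 162 and 119 CPM, and 60.8 CPM against 56.3 and 44.5 CPM. Atp6v1d (349 CPM, against 435 and 321) and Atp6v1g1 (159 CPM, against 205 and 134) lay between the controls. Atp6v1f and Atp6v1g1 share 12.6% and 19.2% of their 50-base words with other genes. Over the 8 genes the median log2 fold change was -0.13, with -0.26 over control 5 and 0.04 over control 6.

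Of the accessory proteins, Atp6ap2, the prorenin receptor that also helps assemble the pump, had 382 CPM in the knockout library, against 624 and 592 CPM in the controls. The controls were within 0.08 of each other on the log2 scale, and the knockout library lay 0.71 and 0.63 below them (adjusted p = 0.903, edgeR quasi-likelihood). Atp6ap1 had 744 CPM, against 734 and 864 CPM. Atp6ap1, Atp6ap2, Gla, Lamp2 and Tfe3 are X-linked. The Y-linked Uty had 846 knockout reads, against 2194 and 1110 control reads, and Xist had 79 reads, against 0 in both controls. The part of the sex of the embryos in these results was not tested. The median log2 fold change was -0.10 for the 5 X-linked members and -0.15 for the other 46 tested.

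**Figure D3:**
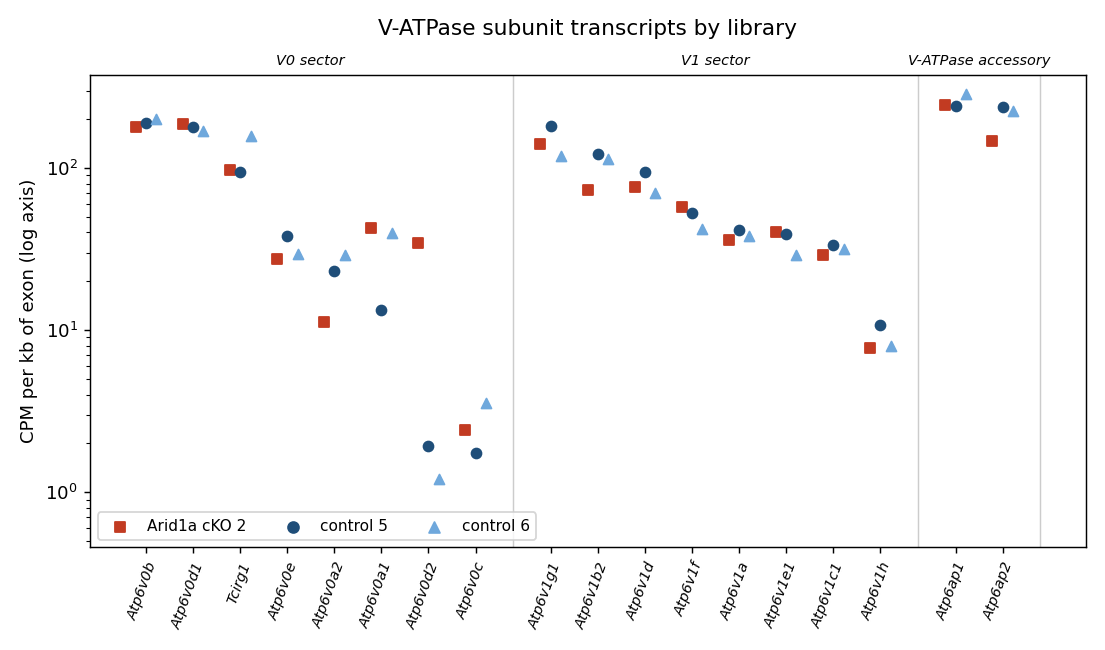
Level of the 18 V-ATPase transcripts in CPM per kb of exon (log axis) in Arid1a cKO 2 (squares), control 5 (circles) and control 6 (triangles). Atp6v0d2 is 34.6 in the knockout library, against 1.93 (control 5) and 1.20 (control 6), while each V1 gene lies within 2-fold of both controls.

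Among other genes of the pump, fixed as lists with earlier results of these data known, none passed the edgeR or the DESeq2 test. Tissue-restricted subunits were scarce: of 8 listed, 2 passed the filter, Atp6v0e2 with 47 reads in the knockout library against 0 and 35, and Atp6v1g2 with 172 against 198 and 80. Atp6v0a4, the kidney form of the a subunit, had 6 reads against 0 and 0. Of 9 tested assembly and regulation factors, the knockout library lay below both controls in 6 and above both in 2 (median log2 fold change -0.36), against 31.1% and 38% of all genes tested. In 2 of these 6 it lay below by more than the controls' gap, 22.2% of the list against 17.9% of all genes tested. Wdr7 of the rabconnectin complex, which loads V1 onto V0, had 46.7 CPM, against 65.4 and 74.6 CPM. Tmem199, an assembly factor, had 130 CPM, against 229 and 147 CPM, Oxr1 had 61.1 CPM, against 98.0 and 68.6 CPM, and Tldc1 had 46.7 CPM, against 24.2 and 38.1 CPM.

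Transcripts of most lysosomal proteases, the most abundant ones included, lay below both controls in the knockout library, and none passed the edgeR quasi-likelihood test. The knockout lay below both controls in 8 of 11 tested proteases (72.7%), each time by more than the gap between the controls, and above both in 2. Of all genes tested, 31.1% lay below both and 17.9% did so by more than that gap, and at 5 CPM or more these shares were 35.3% and 20%. The median log2 fold change was -0.57, with -0.49 over control 5 and -0.59 over control 6, against 0.05 over all genes tested. Over the same libraries 7 of the 8 microglia markers also lay below both controls (median log2 fold change -1.27), and their part in the protease values was not tested.

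Lgmn, the asparaginyl endopeptidase legumain that also processes cathepsins, was the most abundant member per length in every library. It had 149790 knockout reads, against 224402 and 165135 control reads, which is 8193 CPM against 12524 and 12226 CPM. The controls nearly coincided, and the knockout library lay 0.61 and 0.58 below them on the log2 scale (log2 fold change -0.59, SE 0.26, unadjusted p = 0.0539, adjusted p = 0.850, edgeR quasi-likelihood). Ctsb, the cysteine protease cathepsin B, had 10999 CPM, against 17005 and 18969 CPM (log2 fold change -0.71, SE 0.26, unadjusted p = 0.0260, adjusted p = 0.738). A gene on the opposite strand, Fdft1, covers 12.8% of its exon bases. Lgmn and Ctsb together took 2.03% of all counted reads in the knockout library, against 2.84% (control 5) and 3.06% (control 6). The 52 members together took 4.85%, against 5.67% and 6.62%.

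Ctsh and Ctsf showed the largest steps down among the proteases. Ctsh, an aminopeptidase (GRCm38 chromosome 9, 90054152 to 90076089, plus strand), had 412 knockout reads, against 1405 and 978 control reads, or 22.5 CPM against 78.4 and 72.4 CPM. The log2 fold change was -1.74 (SE 0.46) with an unadjusted p of 0.00532 and an adjusted p of 0.435 (edgeR quasi-likelihood), and the adjusted p ran from 0.0391 with the DESeq2 Wald test to 0.661 over the alternatives. In the authors' deposited table Ctsh was marked as significant and down against control 5 (background 7.75%), and no member was marked down against control 6 (background 8.6%). Ctsf, a cysteine cathepsin, had 189 CPM, against 349 and 551 CPM (log2 fold change -1.25, SE 0.42, adjusted p = 0.666). Both controls lay above the knockout library for Ctsf, though they differed from each other by 0.66 on the log2 scale.

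Other proteases lay below both controls by smaller steps. Ctss, the cathepsin that trims the class II invariant chain, had 1956 CPM in the knockout library, against 2405 and 2500 CPM. Ctsz had 584 CPM, against 917 and 820 CPM, and the protective protein Ctsa had 413 CPM, against 525 and 622 CPM. Tpp1, a tripeptidyl peptidase whose human loss causes a neuronal storage disease, had 579 CPM, against 814 and 1033 CPM. For Ctsa, genes on the opposite strand, Pltp and Neurl2, cover 17.4% of exon bases.

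The exceptions were the aspartic protease Ctsd and the dipeptidyl peptidase Ctsc, which stood above both controls. Ctsd had 481 CPM in the knockout library, against 235 and 299 CPM (log2 fold change 0.85, SE 0.35, unadjusted p = 0.0409, adjusted p = 0.817, edgeR quasi-likelihood). A same-strand gene covers 34.4% of the exon bases of Ctsd, so reads there could have been assigned to neither. Ctsc, which activates granule serine proteases, had 4221 CPM, against 3496 and 3047 CPM. Ctsl had 722 CPM, against 639 and 1194 CPM, and lay between the controls, and 26.9% of its exon bases are covered on the opposite strand. Ctsk, with its 5 reads (0.273 CPM, exact Poisson interval 0.0888 to 0.638) against 0 and 0, was close to undetected in all 3 libraries.

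**Figure D4:**
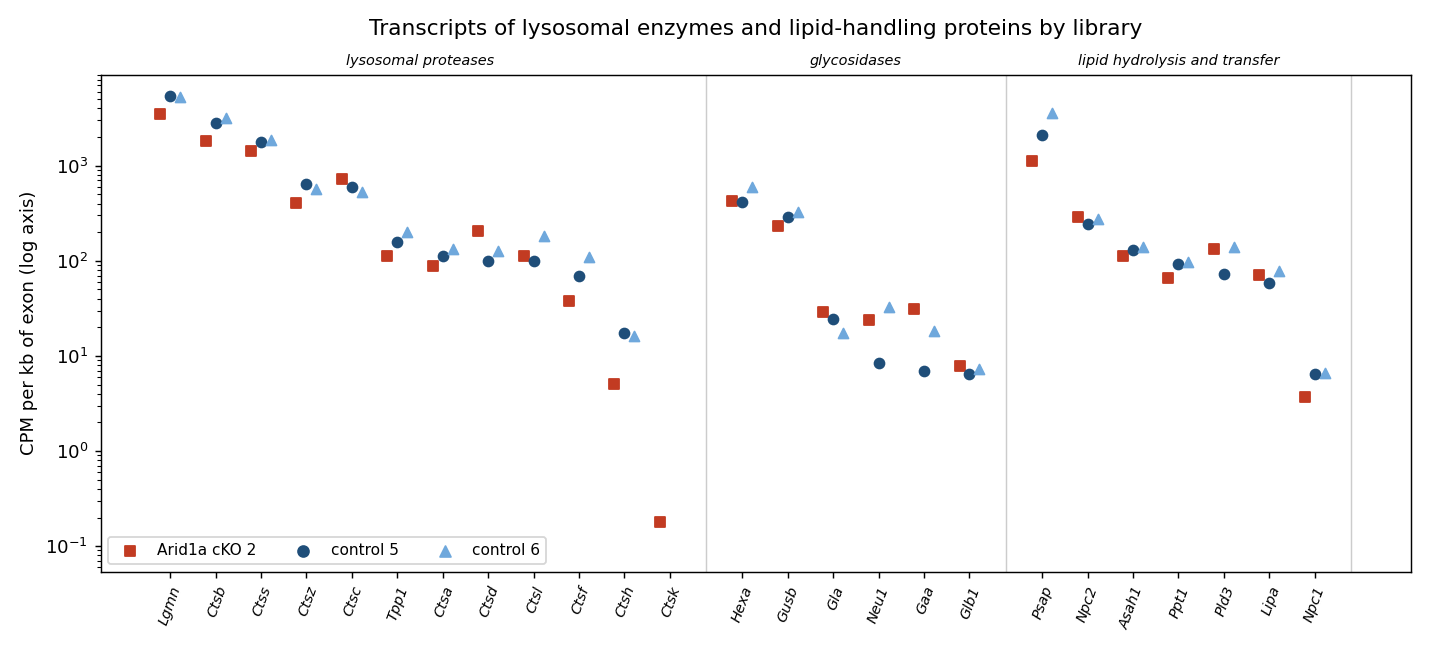
Level of transcripts of proteases, glycosidases and lipid-handling proteins in CPM per kb of exon (log axis) in Arid1a cKO 2 (squares), control 5 (circles) and control 6 (triangles); Ctsk has no point in the controls because it had 0 reads. Lgmn and Ctsb are lowest in the knockout library, Ctsd is highest there, and Psap follows the same order as Ctsb.

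Glycosidases, which strip sugars from glycolipids and glycoproteins, showed no common direction. The median log2 fold change of the 6 was 0.21, but it was 0.26 over control 5 and -0.17 over control 6, so its sign depends on the control. Gaa, which degrades lysosomal glycogen, had 147 CPM in the knockout library, against 33.0 and 88.4 CPM (log2 fold change 1.28, SE 0.56, adjusted p = 0.839, edgeR quasi-likelihood). Neu1, a sialidase, had 89.6 CPM, against 31.2 and 121 CPM, so control 5 was the low library and the knockout lay between. Gla, an alpha-galactosidase, had 95.1 CPM, against 79.2 and 56.6 CPM, and Glb1, the lysosomal beta-galactosidase, had 23.3 CPM, against 19.4 and 21.7 CPM. Both were above both controls by small steps. The 2 most abundant glycosidases did not stand above the controls: Hexa, the alpha subunit of hexosaminidase A, had 850 CPM, against 836 and 1205 CPM, and Gusb, beta-glucuronidase, had 1067 CPM, against 1326 and 1479 CPM. They led the group per length too, at 426 and 235 CPM per kb of exon in the knockout library, and a gene on the opposite strand covers 12.8% of the exon bases of Hexa.

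Psap had the largest step among the genes of lipid hydrolysis and transfer. It encodes prosaposin, the precursor of the saposins that present sphingolipids to their hydrolases (GRCm38 chromosome 10, 60277627 to 60302597, plus strand). It had 56399 knockout reads, against 104488 and 133976 control reads, or 3085 CPM against 5831 and 9919 CPM. The log2 fold change was -1.35 (SE 0.38) with an unadjusted p of 0.00766 and an adjusted p of 0.498 (edgeR quasi-likelihood), and the adjusted p ran from 0.0238 with the DESeq2 Wald test to 0.796 over the alternatives. On the log2 scale the knockout library lay 0.92 below control 5 and 1.69 below control 6 (ratios -0.92 and -1.69), and the controls themselves differed by 0.77.

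Other lipid genes lay nearer to the controls. Npc1, the membrane cholesterol transporter of Niemann-Pick type C, had 42.0 CPM in the knockout library, against 72.6 and 74.8 CPM (log2 fold change -0.81, SE 0.43, adjusted p = 0.925). Its lumenal partner Npc2 had 1571 CPM, against 1335 and 1489 CPM. The pair thus lay on opposite sides of the controls. Ppt1, a depalmitoylating thioesterase, had 243 CPM, against 338 and 358 CPM, and acid ceramidase Asah1 had 384 CPM, against 441 and 476 CPM. Acid lipase Lipa (481 CPM, against 399 and 531) and the phospholipase D family member Pld3 (388 CPM, against 212 and 408) lay between the controls. The median of the 7 was -0.26, with -0.20 over control 5 and -0.31 over control 6.

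Membrane proteins of the lysosome lay on both sides of the controls, with Mcoln1, Scarb2 and Cd68 above both and Lamp2 below both. Mcoln1, the TRPML1 calcium channel of the lysosomal membrane (GRCm38 chromosome 8, 3500457 to 3515232, plus strand), had 930 knockout reads, against 455 and 327 control reads. This is 50.9 CPM against 25.4 and 24.2 CPM (log2 fold change 1.04, SE 0.47, unadjusted p = 0.0576, adjusted p = 0.854, edgeR quasi-likelihood). The controls differed by 0.07 on the log2 scale, and the knockout library lay 1.00 and 1.07 above them. Scarb2, the receptor that carries glucocerebrosidase to lysosomes, had 373 CPM, against 231 and 279 CPM, and the macrophage sialomucin Cd68 had 878 CPM, against 741 and 677 CPM. Both lay above both controls by more than the controls' gap, though neither passed the test. Lamp2 had 362 CPM, against 476 and 524 CPM, below both by more than that gap, while Lamp1 (506 CPM, against 803 and 493) and Laptm5 (2059 CPM, against 1611 and 2404) lay between. The median of the 6 was 0.17, with 0.30 over control 5 and 0.21 over control 6.

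**Figure D5:**
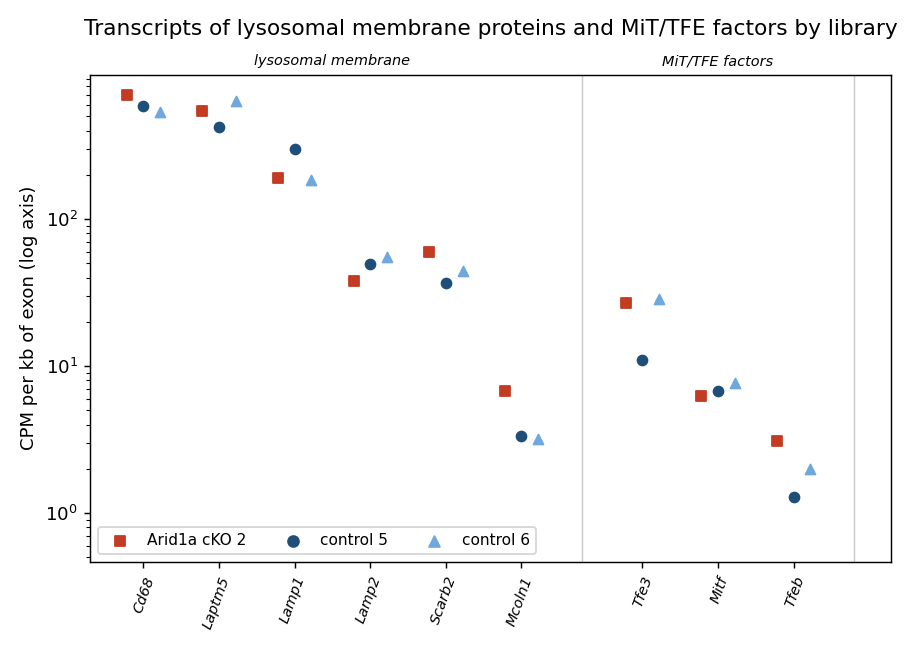
Level of transcripts of lysosomal membrane proteins and of the MiT/TFE factors in CPM per kb of exon (log axis) in Arid1a cKO 2 (squares), control 5 (circles) and control 6 (triangles). Mcoln1, at 6.73 in the knockout library, is about level in the 2 controls at 3.36 and 3.20, while Tfe3 is low in control 5 alone.

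The MiT/TFE factors gave no common pattern. Tfeb, taken as the master regulator of lysosomal genes, had 318 knockout reads, against 130 and 152 control reads, or 17.4 CPM against 7.26 and 11.3 CPM (log2 fold change 0.91, SE 0.69, adjusted p = 0.993, edgeR quasi-likelihood). Tfe3 had 247 CPM, against 103 and 267 CPM, so the knockout library was close to control 6 and control 5 was low. Mitf, which drives osteoclast genes, had 38.5 CPM, against 42.2 and 47.8 CPM. Per length, Tfe3 was the most abundant of the 3 in every library, at 26.7 CPM per kb of exon in the knockout library, against 11.1 and 28.8. Of 16 tested genes linked to these factors, the knockout library lay above both controls in 6 and below both in 5 (median log2 fold change -0.05). That is 37.5% and 31.2%, against 38% and 31.1% of all genes tested. These included the MiT family member Tfec, with 75.0 CPM against 36.4 and 43.5 CPM, the folliculin partners Fnip1 (61.8 CPM, against 114 and 90.0) and Fnip2 (115 CPM, against 53.6 and 97.8), and Ywhah, a 14-3-3 protein of the family that holds TFEB in the cytosol, with 401 CPM against 933 and 576 CPM.

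The controls differed 2-fold or more in 5 members, Atp6v0a1, Atp6v0c, Gaa, Neu1 and Tfe3, with control 5 the lower library in all 5. That is 9.8% of the 51 tested. Over all genes tested, control 5 was the lower by 2-fold or more in 21.2% and control 6 in 10.5%. Among the 9711 genes at 5 CPM or more, a level that all 51 members reach, these shares were 11.1% and 5.57%. For Atp6v0a1, Gaa and Neu1, the authors' deposited table marked the knockout as up against control 5 and gave no mark against control 6.

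Genes of the wider lysosome, from lists of hydrolases, transporters and sorting proteins outside the 52, held genes on both sides of the controls, and none passed the edgeR quasi-likelihood test. The DESeq2 Wald test called 3 of them higher, Gpnmb, Hpse and Cst3, and 2 lower, Slc11a1 and Slc29a3, where it called 0.433% of all genes tested higher and 1.03% lower. Of 37 tested hydrolases and related lumenal proteins, the knockout library lay above both controls in 13 and below both in 13 (median log2 fold change 0.03). That is 35.1% each, against 38% above and 31.1% below of all genes tested. Hpse, heparanase, had 121 CPM, against 30.7 and 29.2 CPM (log2 fold change 2.01, SE 0.40, adjusted p = 0.212 with edgeR and 0.00761 with DESeq2), and the sulfatase Arsa had 58.3 CPM, against 11.1 and 28.9 CPM. Sumf1, which activates sulfatases, had 27.1 CPM, against 103 and 42.9 CPM. Among 21 tested membrane proteins and transporters, 7 stood above (33.3%) and 10 below (47.6%), with a median of -0.12. Gpnmb, a glycoprotein of lysosomes and melanosomes, had 982 CPM, against 235 and 204 CPM (adjusted p = 0.104 with edgeR and 4.64e-07 with DESeq2). Slc11a1, the phagosomal metal transporter, had 78.6 CPM, against 197 and 313 CPM (adjusted p = 0.435 with edgeR and 0.00753 with DESeq2). Slc29a3, a lysosomal nucleoside transporter, had 79.3 CPM, against 191 and 299 CPM (adjusted p = 0.459 with edgeR and 0.0120 with DESeq2), and Slc15a3, a peptide and histidine transporter, had 126 CPM, against 47.9 and 45.9 CPM.

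The medians of the hydrolases and of the sorting proteins were 0.16 and 0.37 over control 5 and -0.24 and -0.03 over control 6, so their signs depend on the control. Of 14 tested sorting proteins and cathepsin inhibitors, 5 stood above and 2 below, with a median of 0.11. That is 35.7% and 14.3%, against 38% and 31.1% of all genes tested. The secreted cathepsin inhibitor Cst3 had 808 CPM in the knockout library, against 330 and 267 CPM (log2 fold change 1.44, SE 0.34, adjusted p = 0.332 with edgeR and 0.00694 with DESeq2). The cytosolic inhibitor Cstb had 125 CPM, against 89.8 and 86.9 CPM, the mannose 6-phosphate receptor M6pr had 421 CPM, against 517 and 559 CPM, and the sorting adaptor Gga1 had 70.6 CPM, against 8.04 and 69.4 CPM.

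Since Atp6v0d2, Tcirg1 and Ctsk are best known from osteoclasts, genes of osteoclast acid secretion were listed, with Atp6v0d2, Tcirg1 and Ctsk among them. Of the 15 listed, 11 were tested, with 5 above both controls, Atp6v0d2 included, and 3 below. That is 45.5% and 27.3%, against 38% and 31.1% of all genes tested, and 7 of the 11 averaged at least 5 CPM. Their median log2 fold change was 0.38, with 0.95 over control 5 and -0.18 over control 6, so its sign depends on the control. Apart from Atp6v0d2, the rule named the transcription factor Nfatc1, with 129 CPM against 66.9 and 105 CPM, the chloride transporter subunit Ostm1, with 158 CPM against 213 and 214 CPM, and the receptor Tnfrsf11a, with 37.3 CPM against 33.5 and 28.3 CPM.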

How the data were processed

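RNA sequencing libraries of sorted microglia were made with an Illumina TruSeq RNA kit from 2 μg of total RNA, per the labels' protocols. Bowtie2 2.2.3, TopHat2 2.0.12 and HTSeq 0.6.0 are named in the submitters' processing notes with build mm9. The deposited gene positions matched GENCODE M21 (GRCm38) exactly for 89.9% of the IDs found there, so coordinates are given on GRCm38. The authors deposited 2 tables, each with raw read counts per gene and CPM for the knockout library and 1 control, the fold change (ratio and log2), and p-values, raw and adjusted, whose test is not given in the sources used here.

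Counts of the 16655 shared genes were fitted with edgeR 4.0.16 in R 4.3.3: filterByExpr, TMM factors (1.059, 0.963 and 0.981), quasi-likelihood F tests with default settings, two-sided, Benjamini-Hochberg over 15236 genes. The fit has 1 residual degree of freedom and assumes that the knockout library varies like the controls. The script was tested on simulated data. SE is the fold change over the root of F. Library ratios used a prior count of 2. CPM printed are TMM-scaled, and exon lengths are unions over GENCODE M21. Poisson intervals are at the 95% level and cover counting error only. An exact permutation test of 1 library against 2 cannot reach the threshold. The 52 members and all lists were chosen with earlier results of these data known, so lists carry no test of their own. All members are named. Of each other list, up to 4 are named, by p, among genes on one side of both controls that average 5 CPM or more. For the hydrolase list, 1 gene that this rule names is not reported here. Alternatives were other scaling factors and low-count filters, the DESeq2 1.42.0 Wald test, genes in either table, a prior count of 0.5 and leaving out each control. Strand is not marked by the kit. Protein sequences were not used here.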

Additional observations from a re-analysis of the deposited data

How the results depend on the processing

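No paired analysis was possible because the knockout and control libraries share no replicate number. Over all genes, the count called higher was 2 and became 0 with upper-quartile factors, size factors of DESeq2 or without a low-count filter, 4 with library totals only, 17 with a minimum of 5 CPM in 2 libraries, 66 with the DESeq2 Wald test, 8 with the newer edgeR quasi-likelihood form and 5 with genes in either table. The count called lower was 4 and became 0 with upper-quartile factors, size factors of DESeq2 or without a low-count filter, 27 at 5 CPM or more and 157 with the Wald test. The cause was not tested. Where edgeR called 0 genes, 818, 895 and 948 had an unadjusted p under 0.05. Among members, the count called higher was 0 and became 1, Atp6v0d2, with library totals only (adjusted p = 0.0342), at 5 CPM or more (0.00716), with the Wald test (8.06e-09), the newer form (0.0411) and genes in either table (0.0369). It stayed 0 with DESeq2 size factors (0.0855), upper-quartile factors (0.240) and no filter (0.0852). The count of members called lower became 2 with the Wald test. Outside the members, that test also called Gpnmb, Hpse, Cst3, Slc11a1 and Slc29a3. The newer form was chosen after seeing the data, since the older one, planned as an alternative, is the default of the version used.

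The median log2 fold change of the members, -0.14, was -0.0147 with library totals only, a scaling that moves the median of all genes by 0.12. The difference between the 2 medians was -0.19 under both. With that scaling Atp6v1d (0.0111), Atp6v1g1 (0.0376) and Atp6ap1 (0.0197) changed sign. Without control 5 the median of the members was -0.18, and without control 6 it was -0.08. Leaving out a control gives values with no test, since no residual degree of freedom is left. The knockout library lay above both controls in 15 to 17 members and below both in 18 to 24 over the scalings and prior counts. With 1 knockout library, no replicate check of the genotype can be had.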
